A study of Mus musculus with 4 samples.

Results

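Fos, Fosb, Jun, Junb, Egr1, Ier2, Zfp36, Nr4a1, Atf3 and Nfkbia are immediate early and stress response genes, and they were taken by name from the 30268 gene rows of a Drop-seq table of embryonic mouse hearts. All 10 had a row, and all 10 passed the filter on low counts in every cell class tested. Drop-seq captures single cells in droplets and counts unique molecular identifiers (UMIs), each standing for 1 captured transcript read near its 3′ end. The question was whether these genes differed between genotypes in every cell type of a heart, or in the epicardial lineage, where the gene deletion was directed.

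Immediate early genes are transcribed within minutes of a growth factor, cytokine or stress signal, because the factors that switch them on are already present in the cell. FOS and JUN family proteins pair to form the transcription factor AP-1, while ZFP36 and the NF-kappa-B inhibitor encoded by Nfkbia act in feedback loops that end such responses. Enzymatic dissociation of a tissue is known to induce the same genes, so their level in a cell suspension can combine the state of the cell in the embryo with its handling.

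The 2 Lats1/2 CKO (conditional knockout) libraries came from hearts at E13.5 and at E14.5, and the 2 control libraries came from hearts of the same stages. Both genotypes carried Wt1 CreERT2/+, which places a tamoxifen-dependent Cre recombinase at the Wt1 locus, and the reporter Rosa26mTmG/+, which makes EGFP after recombination. The CKO embryos also carried Lats1/2 F/F, floxed alleles of the kinases LATS1 and LATS2 that restrain the coactivators YAP and TAZ. Wt1 is active in the epicardium, the mesothelial cover of the heart that gives rise to cardiac fibroblasts, so the deletion was directed to the epicardial lineage and the other cells of a CKO heart served as its neighbours in the same suspension. Each genotype and stage had 1 library, so intervals given for single stages cover counting error only. The number of embryos per library, the tamoxifen schedule and the dissociation protocol are not stated in the labels. A difference between suspensions and a difference between genotypes cannot be told apart, whether a gene was lower in every class or in some classes only.

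After filtering, 5915 cells at E13.5 and 5597 cells at E14.5 were kept from Lats1/2 CKO hearts, and 4478 and 5505 cells from control hearts. The median cell held 2015 UMIs in the CKO and 1588.5 in the control library at E13.5, and 1035 in the CKO and 955 in the control library at E14.5. The median mitochondrial share was 2.78% in the CKO and 2.88% in the control library at E13.5, but 4.69% in the CKO and 3.07% in the control library at E14.5. Cells were assigned to classes by marker genes that do not include the 10 genes. The epicardial gate held 566 cells and the fibroblast gate 1342, and together they form the epicardial lineage below, with 711 cells in CKO and 464 in control hearts at E13.5 and 420 in CKO and 313 in control hearts at E14.5. Epicardial cells made up 28.7% of the lineage in CKO and 22.8% in control hearts at E13.5, and 44.5% in CKO and 22.0% in control hearts at E14.5, so both gates were also read apart. Of the gated cells, 97.2% of the epicardial and 81.4% of the fibroblast cells lay in clusters of the same name, against 35.4% of mural cells and 53.2% of haemoglobin-rich cells. Other mesenchyme had no cluster of its own name, and of its 825 cells 260 lay in fibroblast and 509 in valve mesenchyme clusters. The values of these 3 classes are the least certain. Of the 21495 cells, 9 barcodes occurred in more than 1 library.

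Egfp was at 294 CPM (UMIs of a gene scaled to a common total per class and library) in the lineage of CKO and 60.5 in that of control hearts at E13.5, and at 403 in CKO and 30.9 in control hearts at E14.5. Although both genotypes carried the reporter, the control lineage thus had far less of its transcript. In cardiomyocytes Egfp was at 23.9 CPM in CKO and 10.5 in control hearts at E13.5 and at 21.1 in CKO and 20.05 in control hearts at E14.5, so the control lineage at E14.5 lay near the cardiomyocytes. Lats2 was at 26.8 CPM in CKO and 46.9 in control lineage cells at E13.5 and at 42.4 in CKO and 50.9 in control cells at E14.5. Lats1 was at 28.2 CPM in CKO and 33.3 in control cells at E13.5, and at 17.7 in CKO and 25.4 in control cells at E14.5. These 3′ counts do not check the deletion, because the position of the floxed exons relative to the counted tag was not given in the sources used here.

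Positions are given for 9 of the 10 genes (GENCODE vM21, GRCm38, the assembly of mm10). Fos lies at chr12:85473890-85477273 on the plus strand with 4 exons, Nfkbia at chr12:55489410-55492647 on the minus strand with 6 exons, and Nr4a1 at chr15:101254269-101274795 on the plus strand with 8 exons. Fosb at chr7:19302696-19310051 on the minus strand has 4 exons, and Zfp36 lies on the same chromosome and strand at chr7:28376784-28380253. Junb at chr8:84974484-84978718 and Ier2 at chr8:84661331-84662852 lie on the minus strand with 1 exon each, Jun at chr4:95049034-95052222 is a gene of 1 exon, and Atf3 spans chr1:191170296-191218039 on the minus strand with 4 exons. The 250 bases before the RefSeq start (GRCm38.p6) are shown for Fos, which was lower in CKO cells of most classes, for Zfp36 and Nfkbia, whose genotype effect in the lineage differed from that in cardiomyocytes, and for Junb as a member of the JUN family. Capitals mark matches, on either strand, to 5 motifs: the core TGACG of the cyclic AMP response element, the EGR site GCGTGGG, the TATA box TATAAA, the CArG box bound by serum response factor and the NF-kappa-B site. The windows are chr12:85473640-85473889 (plus strand), chr8:84978749-84978998, chr7:28379229-28379478 and chr12:55492648-55492897 (minus strand), each written 5′ to 3′ on the strand of its gene.
Fos: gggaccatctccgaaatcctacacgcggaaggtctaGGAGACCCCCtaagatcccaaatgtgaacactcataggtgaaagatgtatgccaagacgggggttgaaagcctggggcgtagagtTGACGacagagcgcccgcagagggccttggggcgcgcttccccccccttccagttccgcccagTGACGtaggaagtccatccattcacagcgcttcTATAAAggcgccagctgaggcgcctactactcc
Junb: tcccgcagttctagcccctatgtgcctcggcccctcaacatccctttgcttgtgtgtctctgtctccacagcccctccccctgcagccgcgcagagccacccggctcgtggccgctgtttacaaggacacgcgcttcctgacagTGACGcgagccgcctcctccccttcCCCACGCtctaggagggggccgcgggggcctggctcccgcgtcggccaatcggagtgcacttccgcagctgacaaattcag
Zfp36: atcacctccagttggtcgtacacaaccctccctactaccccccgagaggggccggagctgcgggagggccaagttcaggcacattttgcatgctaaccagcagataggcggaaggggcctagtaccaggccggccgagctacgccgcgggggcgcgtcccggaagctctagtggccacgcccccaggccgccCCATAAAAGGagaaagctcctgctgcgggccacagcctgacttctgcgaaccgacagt
Nfkbia: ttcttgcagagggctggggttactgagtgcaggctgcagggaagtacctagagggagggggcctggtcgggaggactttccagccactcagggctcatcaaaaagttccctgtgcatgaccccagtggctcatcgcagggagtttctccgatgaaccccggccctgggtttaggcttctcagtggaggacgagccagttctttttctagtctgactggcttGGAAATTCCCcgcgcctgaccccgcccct

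Of the 8 members with a RefSeq window, Fos, Fosb, Junb, Nr4a1 and Atf3 held the core TGACG, which 17.8% of all 32851 windows of the same length hold. Zfp36 held a CArG box, found in 1.47% of windows, from 58 to 49 bases before the start, and Junb held an EGR site, found in 4.3% of windows. Fos, Fosb and Nfkbia held a match to the NF-kappa-B site, found in 7.25% of windows, which in Nfkbia lay from 29 to 20 bases before the start. Fos alone of the 8 held TATAAA, found in 12.4% of windows. No matches overlapped in the 4 windows shown. A match is a description of the letters and says nothing about binding in these cells.

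Macrophages carried the highest level of each of the 10 genes, as the median over the 4 libraries, and the genes were present in every other class as well. The summed level of the 10 genes was 10428 CPM in CKO and 10667 in control macrophages at E13.5, and 8731 in CKO and 10434 in control macrophages at E14.5. Epicardial, fibroblast, other mesenchyme, valve mesenchyme and mural cells followed, with 2244 to 9292 CPM over all libraries, and these ranges overlapped one another. Haemoglobin-rich cells had 1365 to 2786 CPM, coronary endothelial cells 1091 to 1879 CPM, endocardial cells 1058 to 1442 CPM and cardiomyocytes 716 to 1171 CPM. The order of the last 3 classes is not resolved, since their ranges overlap.

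**Figure D1:**
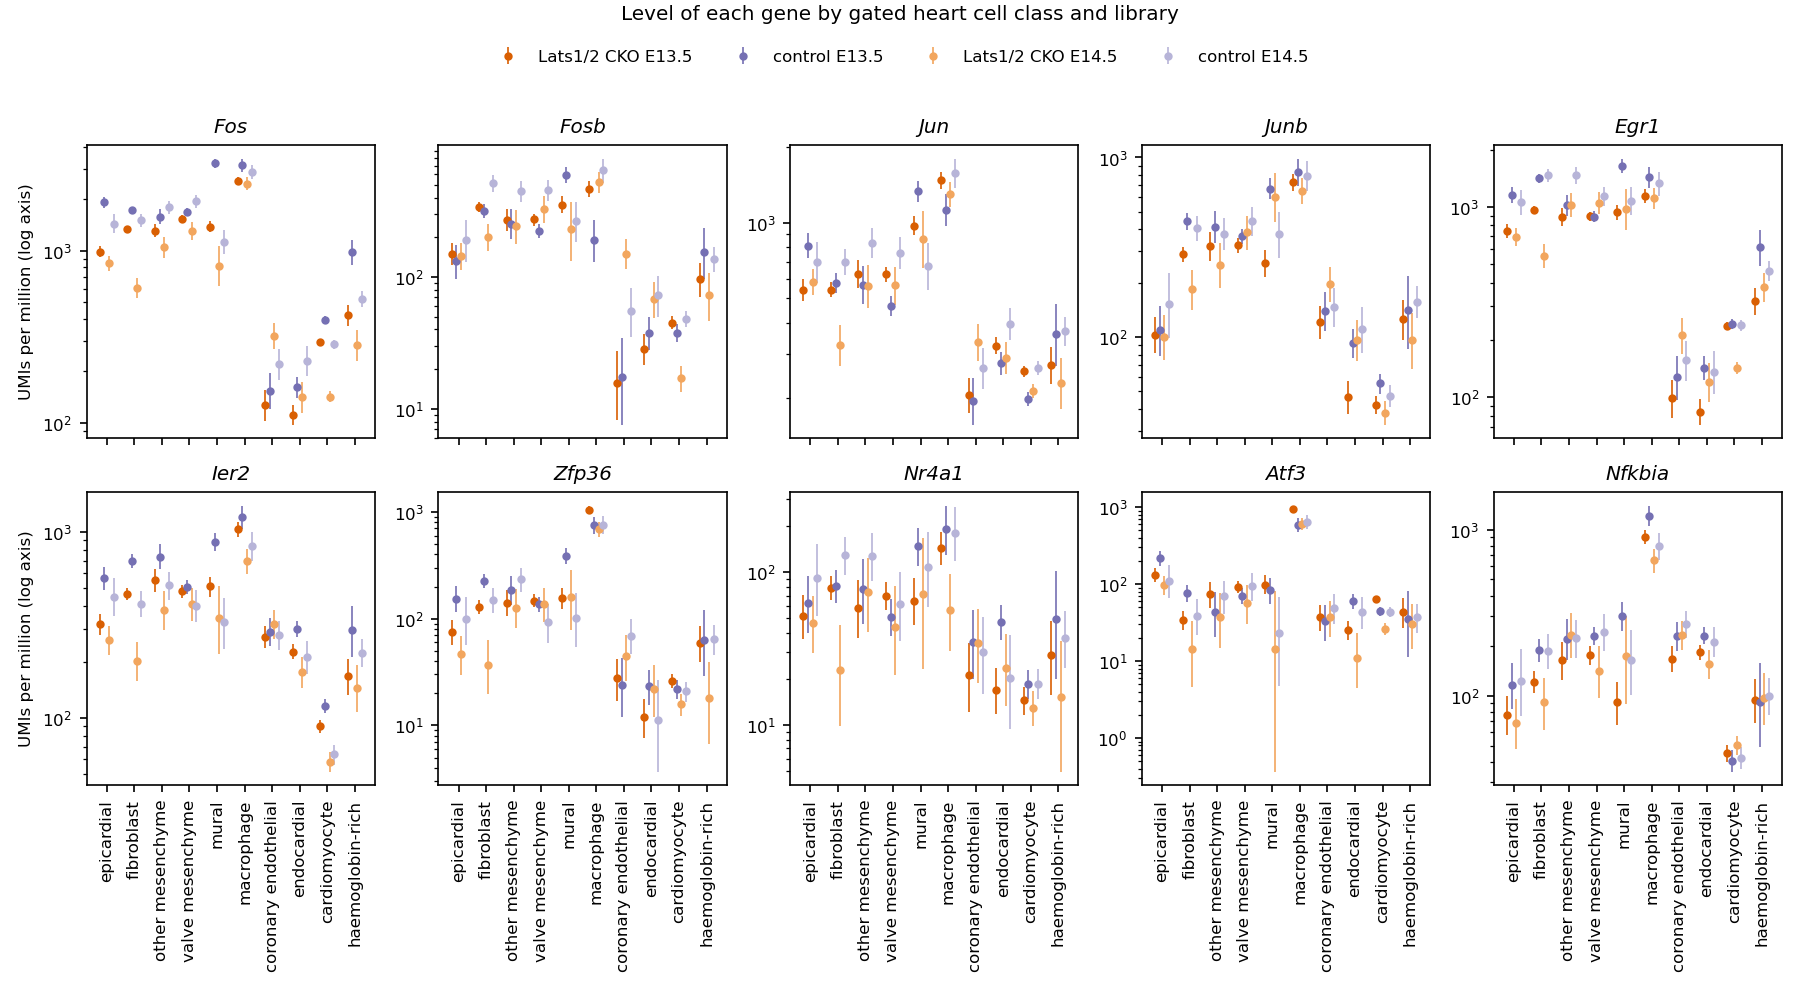
Level of each gene (CPM of the class in that library, log axis, vertical lines are 95% Poisson intervals for counting error) in 10 gated classes and 4 libraries, Lats1/2 CKO libraries in orange and control libraries in violet. Macrophages lead for each gene by median, and Zfp36 and Nfkbia are lower in both CKO libraries than in the control library of the same stage in fibroblasts.

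The AP-1 genes differed in how they were ordered below macrophages. Fos, the partner that JUN proteins need for the most active form of AP-1, had a median of 2707 CPM in macrophages, 1610 in valve mesenchyme, 1416 in fibroblasts and 1212 in epicardial cells, against 290 in cardiomyocytes, 186 in coronary endothelial and 151 in endocardial cells. Jun varied less between classes, with a median of 1389 CPM in macrophages and 235 in cardiomyocytes. Junb, a JUN protein that often restrains Jun, and Fosb split the lineage itself: Junb was at 185 to 441 CPM over the 4 libraries in fibroblasts and at 101 to 154 in epicardial cells, whose median of 107 was below the 144 of coronary endothelial cells, and Fosb at 202 to 514 CPM in fibroblasts and at 132 to 191 in epicardial cells. These ranges did not overlap for either gene. Atf3, a stress-induced bZIP factor, showed the opposite split, at 96.6 to 217 CPM in epicardial cells and 14.2 to 76.6 CPM in fibroblasts, also without overlap. Its fibroblast median of 36.4 CPM was below the 43.6 of cardiomyocytes. The share of all genes whose ranges did not overlap between epicardial cells and fibroblasts was not counted.

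The other transcription factors and Ier2 were as widespread. Egr1, a zinc finger factor induced through serum response factor, had medians between 904 and 1236 CPM in macrophages, the mesenchymal classes, mural and epicardial cells, and the neighbours in this order overlapped. Nr4a1, an orphan nuclear receptor, was the least well counted in the endothelial classes and cardiomyocytes, with 12.9 to 47.2 CPM. Ier2, a small nuclear protein of the early response, had medians of 937 CPM in macrophages, 438 in fibroblasts and 384 in epicardial cells, and of 77.0 in cardiomyocytes.

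The feedback genes had a different reach. Zfp36, which encodes tristetraprolin, a protein that destabilises transcripts with AU-rich elements, was at 686 to 1045 CPM in macrophages and no higher than 25.9 CPM in any cardiomyocyte library. Nfkbia, which encodes the NF-kappa-B inhibitor IκBα, was ordered unlike the rest, with a median of 230 CPM in coronary endothelial cells and 197 in endocardial cells, above 153 in fibroblasts and 95.9 in epicardial cells. Over the 40 points of 10 classes and 4 libraries, the Pearson correlation of log2 (CPM + 10) between a gene and the sum of the other 9 was 0.87 to 0.94 for 8 genes, but 0.65 for Atf3 and 0.59 for Nfkbia. These points share 4 libraries and are given as a description.

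In the epicardial lineage the summed level of the 10 genes was 3923 CPM in CKO and 5575 in control hearts at E13.5, and 2621 in CKO and 5177 in control hearts at E14.5. The log2 ratio of CKO over control at E13.5 was thus -0.51, with a 95% counting interval of -0.55 to -0.46, and that at E14.5 was -0.98 (-1.06 to -0.90). The median log2 ratio of the 10 genes was -0.58 at the earlier stage and -1.09 at the later, against -0.01 and -0.04 for all 10683 genes tested in the lineage. Of the 10 genes, 8 were lower in CKO cells at both stages, as were 3098 of the 10683 genes tested. Counting intervals lay below 0 at both stages for 7 of the 10, against 2.52% of all tested genes. Macrophages express all 10 genes, and macrophage markers summed to 83.0 CPM in CKO and 68.8 in control epicardial cells at E13.5 and to 179 in CKO and 55.3 in control epicardial cells at E14.5, with 6, 11, 0 and 11 of the 14 markers at 0. In fibroblasts they summed to 34.2 CPM in CKO and 11.1 in control cells at E13.5 and to 28.4 CPM in both genotypes at E14.5. In macrophages the same markers summed to 14392 to 16664 CPM. The part of macrophage RNA in the result was not tested. The median mitochondrial share of the lineage was 2.12% in CKO and 2.35% in control cells at E13.5, and 2.91% in CKO and 2.12% in control cells at E14.5, and its part in the result was not tested.

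Zfp36 had the lowest fitted ratio of the 10. It was at 111 CPM in CKO and 203 in control lineage cells at E13.5 (ratio -0.88 on the log2 scale, -1.14 to -0.61), and at 42.4 CPM in CKO and 134 in control cells at E14.5 (-1.66, -2.28 to -1.07). Nfkbia, the other feedback gene, was at 106 CPM in CKO and 165 in control cells at E13.5 (-0.64, -0.92 to -0.36), and at 77.7 in CKO and 167 in control cells at E14.5 (-1.10, -1.58 to -0.63). Both control libraries lay above both CKO libraries for each of these genes, and the share of all genes that did so was not counted.

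Fos and Egr1 followed the same pattern at higher levels. Fos was at 1215 CPM in CKO and 1775 in control cells at E13.5 (-0.55, -0.63 to -0.46), and at 747 in CKO and 1483 in control cells at E14.5 (-0.99, -1.14 to -0.84). Egr1 was at 889.6 CPM in CKO and 1331 in control cells at E13.5 (-0.58, -0.68 to -0.48), and at 638 in CKO and 1345 in control cells at E14.5 (-1.07, -1.24 to -0.91). For these genes too both control libraries lay above both CKO libraries, again without a share over all genes to set beside it.

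Junb was at 228 CPM in CKO and 339 in control cells at E13.5 (-0.57, -0.76 to -0.38), and at 135 in CKO and 329 in control cells at E14.5 (-1.28, -1.63 to -0.93). Ier2 was at 417 CPM in CKO and 656 in control cells at E13.5 (-0.65, -0.79 to -0.51), and at 237 in CKO and 422 in control cells at E14.5 (-0.83, -1.11 to -0.55). Jun was at 541 CPM in CKO and 649 in control cells at E13.5 (-0.26, -0.39 to -0.13), and at 476 in CKO and 699.8 in control cells at E14.5 (-0.56, -0.76 to -0.35). Jun was thus lower by the smallest margin among the 7 genes whose intervals lay below 0 at both stages.

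The remaining 3 genes were lower at 1 stage only, by their intervals. Nr4a1 was at 70.1 CPM in CKO and 75.9 in control cells at E13.5 (-0.12, -0.50 to 0.28), but at 36.5 in CKO and 118 in control cells at E14.5 (-1.68, -2.36 to -1.06). Fosb was at 278 CPM in CKO and 261 in control cells at E13.5 (0.09, -0.11 to 0.29), but at 168 in CKO and 418 in control cells at E14.5 (-1.31, -1.62 to -1.004). Atf3 was at 66.9 CPM in CKO and 120 in control cells at E13.5 (-0.85, -1.19 to -0.50), and at 62.4 in CKO and 60.0 in control cells at E14.5 (0.05, -0.60 to 0.73). Atf3 was higher in epicardial cells, which were a larger share of the CKO lineage at E14.5. Within fibroblasts its E14.5 ratio was -1.36 and within epicardial cells -0.22, and neither interval excluded 0. The part of the gate shares in the Atf3 ratio of the lineage was not tested.

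**Figure D2:**
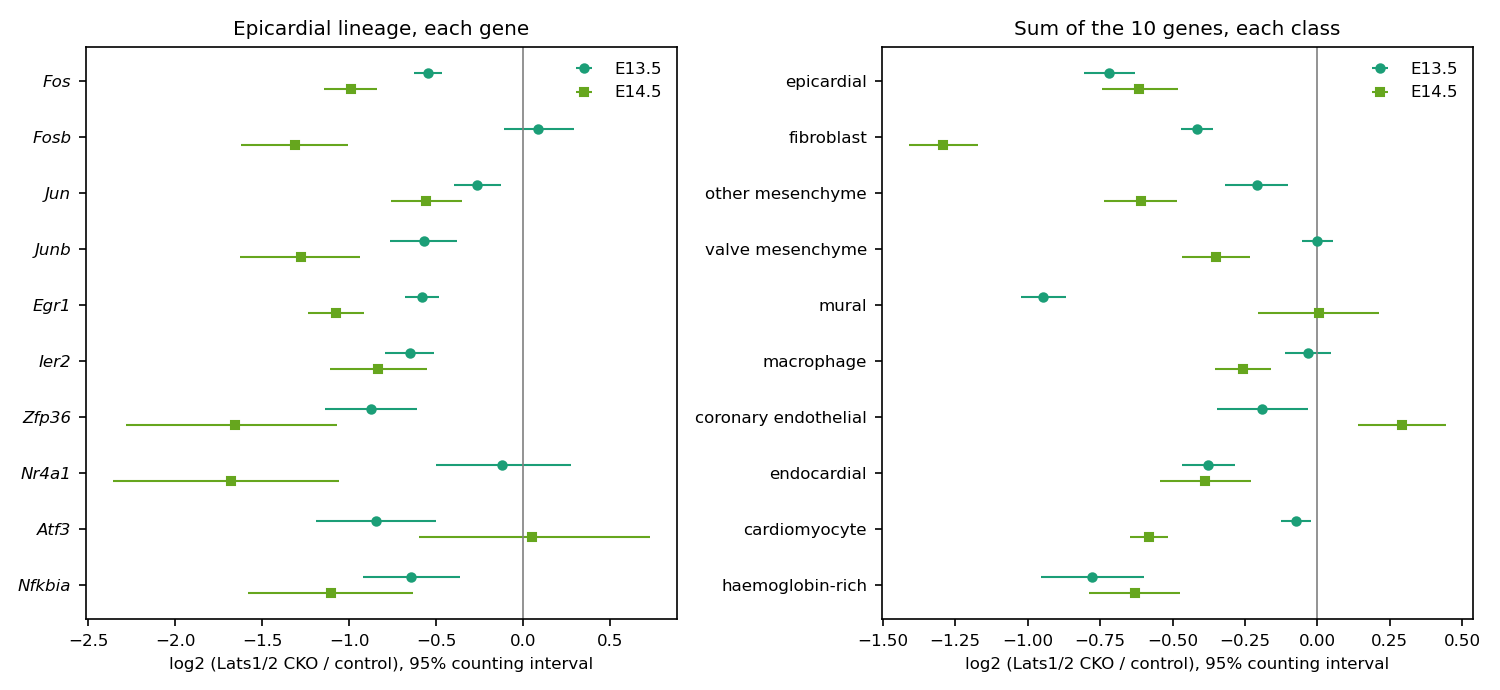
Log2 ratio of Lats1/2 CKO over control with 95% counting intervals, circles for E13.5 and squares for E14.5, for each gene in the epicardial lineage (left) and for the sum of the 10 genes in each gated class (right). On the left the intervals of 7 genes lie below 0 at both stages. On the right the intervals of epicardial and fibroblast cells lie below 0 at both stages, as those of other mesenchyme, endocardial, cardiomyocyte and haemoglobin-rich cells also do.

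With the 2 stages as repeats of the genotype contrast, edgeR's quasi-likelihood test with a stage term called 0 of the 10 genes in the lineage after Benjamini-Hochberg adjustment over all genes, where 0.00936% of genes were called. The smallest adjusted p was 0.486, for Zfp36 (log2 -1.18, SE 0.25). At an unadjusted p under 0.05, 6 of the 10 were lower and 0 higher, against 2.84% of all tested genes lower: Zfp36, Egr1, Junb, Ier2, Nfkbia and Fos. DESeq2 also called 0 of the 10, where 0.103% of genes were called, with 5 lower at an unadjusted p under 0.05, against 0.702% of genes. The fit has 1 residual degree of freedom, and in counts simulated for this comparison on 10683 genes it recovered 82% of 4-fold changes but 4% of 2-fold changes. Without the filter on low counts it called Zfp36, Junb and Egr1, where 0.835% of genes were called.

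Read apart, the gates gave the same direction. The summed ratio was -0.72 in epicardial cells and -0.42 in fibroblasts at E13.5, and -0.61 in epicardial cells and -1.29 in fibroblasts at E14.5. Counting intervals lay below 0 at both stages for 4 of the 10 genes in epicardial cells, against 1.66% of all genes, and for 6 in fibroblasts, against 1.55%. In epicardial cells alone Fos fell (log2 -0.87, SE 0.21, edgeR adjusted p = 0.00569), the single call among the 10 where 1.42% of genes were called, and 5 of the 10 were lower at an unadjusted p under 0.05, against 4.4% of genes. Its level there was 985 CPM in CKO and 1909 in control cells at E13.5 and 843 in CKO and 1438 in control cells at E14.5. In fibroblasts alone 0 of the 10 passed in edgeR, where 0.0459% of genes were called, and 7 were lower at an unadjusted p under 0.05, against 2.19% of genes. Fibroblast Zfp36 was at 128 CPM in CKO and 225 in control cells at E13.5 and at 36.9 in CKO and 149.7 in control cells at E14.5, and fibroblast Nr4a1 at 22.7 CPM in CKO and 129 in control cells at E14.5.

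Outside the lineage the same ratio was formed in 8 classes from the same suspensions. Lineage here means the epicardial and fibroblast gates, and whether cells of the 8 classes, mural cells among them, carried the deletion was not tested. The summed level was lower in CKO cells with an interval below 0 at both stages in other mesenchyme (-0.21 at E13.5 and -0.61 at E14.5), endocardial cells (-0.38 and -0.39), cardiomyocytes (-0.07 and -0.58) and haemoglobin-rich cells (-0.78 and -0.63). Valve mesenchyme had -0.00 (-0.05 to 0.05) at E13.5 and -0.35 at E14.5, and macrophages -0.03 (-0.11 to 0.05) and -0.26. Mural cells had -0.95 at E13.5 and 0.01 at E14.5, and coronary endothelial cells -0.19 and 0.29, so these classes did not hold 1 direction. The coronary value at E14.5 was -0.24 with each cell thinned to 500 UMIs. By single genes, intervals lay below 0 at both stages for 3 of the 10 in endocardial cells (1.46% of all genes), for 2 in other mesenchyme (0.694%), valve mesenchyme (1.08%), cardiomyocytes (4.48%), haemoglobin-rich cells (0.556%) and all endothelial cells (1.88%), for 1 in macrophages (1.17%) and mural cells (0.446%), and for 0 in coronary endothelial cells (1.12%). At E13.5 the summed ratio was below 0 in all 8 outside classes, in 6 of them with an interval below 0. At E14.5 it was below 0 in 6 of the 8, each with an interval below 0.

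Fos, of the 10 genes, was lower in the most classes outside the lineage by its intervals. Its interval lay below 0 in 7 of the 8 outside classes at E13.5 and in 7 of 8 at E14.5, the exception being coronary endothelial cells at both stages, where it lay above 0 at E14.5. Of the 3300 genes tested in all 8 classes, 1.18% met this count at E13.5, 1.76% at E14.5 and 0.182%, or 6 genes, at both, a cut set after the values were seen. The other 5 were ribosomal protein or pseudogene rows (Rps2, Rps13-ps2, Rps19-ps3) and unnamed models. In cardiomyocytes, the class farthest from the lineage in level, Fos was at 295 CPM in CKO and 397 in control cells at E13.5 and at 142 in CKO and 285 in control cells at E14.5.

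By its intervals, Zfp36 did not follow Fos outside the lineage, but it had fewer UMIs and so wider intervals. In coronary endothelial cells at E13.5, for instance, Zfp36 had 21 UMIs in CKO and 11 in control cells, and Fos 96 and 70. Its interval lay below 0 in 2 of the 8 classes at each stage and above 0 in 1 class at E13.5, the macrophages, which had 1045 CPM in CKO and 750.4 in control cells. In valve mesenchyme Zfp36 was at 147 CPM in CKO and 136 in control cells at E13.5 and at 136 in CKO and 93.1 in control cells at E14.5. Nfkbia lay below 0 in 5 of the 8 classes at E13.5 and in 2 at E14.5, but in cardiomyocytes it was at 45.0 CPM in CKO and 40.5 in control cells at E13.5 and at 50.03 in CKO and 42.0 in control cells at E14.5. Outside the lineage the interval of Jun lay above 0 in 4 of 8 classes at E13.5 and below 0 in 6 of 8 at E14.5. With cells thinned to equal depth, and so with fewer UMIs, it lay above 0 in 3 of 8 at E13.5. At E14.5 it then lay below 0 in 0 of 8, although the ratio itself was below 0 in 7, so the change of sign was not resolved at equal depth.

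Within single classes outside the lineage, edgeR called 0 of the 10 genes in each of the 9 class fits, and DESeq2 called 0 in each. DESeq2 called 0.13% of all genes in cardiomyocytes, 0.0551% in coronary, 0.0684% in endocardial and 0.0434% in all endothelial cells, 0.0794% in haemoglobin-rich cells, 0.0234% in macrophages, 0.0775% in mural cells, 0.113% in other mesenchyme and 0.0657% in valve mesenchyme. The share of genes called by edgeR was 0% in cardiomyocytes, 0.0138% in coronary, 0.0195% in endocardial and 0.00867% in all endothelial cells, 0.0635% in haemoglobin-rich cells, 0.0234% in macrophages, 0.136% in mural cells, 0.0938% in other mesenchyme and 0.0877% in valve mesenchyme. At an unadjusted p under 0.05, 1 of the 10 was lower in cardiomyocytes (2.35% of all genes), all endothelial cells (1.84%), macrophages (2.34%), other mesenchyme (2.49%) and valve mesenchyme (1.99%). The count was 2 in endocardial cells (1.94%), 3 in mural cells (1.42%), 3 in haemoglobin-rich cells (1.84%) and 0 in coronary endothelial cells (2.27%).

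The genotype effect in the lineage was then compared with that in another class of the same libraries, a test in which a log2 shift common to both classes cancels. A handling effect that differed between the classes would not cancel, and it cannot be told apart from genotype here. Against cardiomyocytes, 2 of the 10 genes passed in edgeR, where 0.701% of genes passed, and both were lower in the lineage. At an unadjusted p under 0.05, 7 of the 10 were lower, against 2.67% of genes. The 2 genes that passed were Zfp36, with a difference of -1.16 (SE 0.26, adjusted p = 0.00192), and Nfkbia, with -1.02 (SE 0.22, adjusted p = 0.0010). The difference of Zfp36 was -1.11 at the earlier stage and -1.26 at the later, and that of Nfkbia -0.79 and -1.35, so each held its sign at both stages. Fos and Fosb stood at the other end, with differences of -0.05 (SE 0.13) and -0.02 (SE 0.20) against cardiomyocytes.

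Against valve mesenchyme, 2 of the 10 passed, where 0.104% of genes passed: Egr1 (-0.74, SE 0.14, adjusted p = 0.0107) and Zfp36 (-1.28, SE 0.26, adjusted p = 0.0223). All 10 fitted differences from valve mesenchyme were below 0, 9 of them at an unadjusted p under 0.05 against 2.72% of genes. The share of all genes below 0 was not counted. The difference of Fos was -0.41 (SE 0.13, edgeR adjusted p = 0.345). That of Atf3 did not hold its sign by stage, with -1.25 at E13.5 and 0.73 at E14.5. Against macrophages, 2 of the 10 passed, where 0.103% of genes passed: Fosb (-1.08, SE 0.26, adjusted p = 0.0476) and Zfp36 (-1.41, SE 0.26, adjusted p = 0.000158). Here 8 of the 10 were lower at an unadjusted p under 0.05, against 1.85% of genes. Fosb was at 465 CPM in CKO macrophages and 192 CPM in control macrophages at E13.5, and the control library had 68 macrophages at that stage.

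Against endothelial cells, other mesenchyme, mural cells and haemoglobin-rich cells, 0 of the 10 passed in edgeR, where 0%, 0.309%, 0.0107% and 0.0211% of genes passed in that order, with 5, 2, 0 and 1 of the 10 lower at an unadjusted p under 0.05, against 2.67%, 3.27%, 1.12% and 1.79% of genes. Other mesenchyme shares matrix genes with fibroblasts but lacked a UMI of the fibroblast genes Tcf21, Ogn and Dpep1. It gave fitted differences of -0.21 to -0.64, all below 0, and the share of all genes below 0 was not counted. By stage, the differences of Atf3, Nr4a1 and Jun from other mesenchyme did not hold their sign, while those of the other genes were below 0 at both stages. Zfp36 was thus the gene whose genotype effect differed from that of 3 other classes. DESeq2 called 0 of the 10, and 0% of all genes, in each of the 7 comparisons (adjusted p of 0.9999 for each of the 6 edgeR calls), and with each cell thinned to 500 UMIs only Egr1 against valve mesenchyme passed (edgeR adjusted p = 0.0479, where 0.153% of genes passed).

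**Figure D3:**
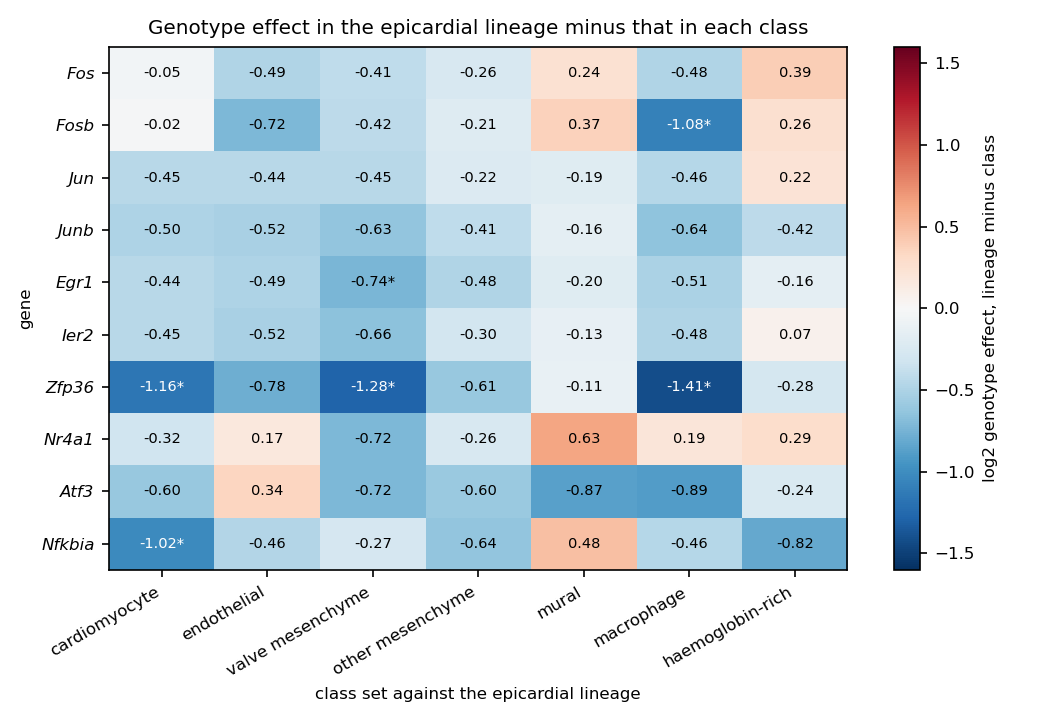
Log2 genotype effect (Lats1/2 CKO over control) in the epicardial lineage minus that in each other class, rows for the 10 genes and columns for the 7 classes tested, with an asterisk where the edgeR adjusted p over all genes was under 0.05. The Zfp36 row has 3 asterisks, and the Fos and Fosb values in the cardiomyocyte column are -0.05 and -0.02.

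Lineage cells that held several of the genes at once were rarer in CKO hearts. Each cell was thinned to 500 UMIs, so that deep cells did not find more genes, and the share with a UMI of 3 or more of the 10 genes was counted. In the lineage this share was 18.3% (15.5 to 21.3, Clopper-Pearson 95% interval) in CKO and 28.7% (24.6 to 33.0) in control cells at E13.5, and 10% (7.30 to 13.3) in CKO and 27.8% (22.9 to 33.1) in control cells at E14.5. Without thinning it was 58.1% in CKO and 59.7% in control cells at E13.5, where the median CKO cell held 2370 UMIs and the median control cell 1689.5, and 29.5% in CKO and 53.4% in control cells at E14.5.

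If each gene had been detected independently at its own rate, the lineage shares would have been 11.6% in CKO and 23.2% in control cells at E13.5, and 3.82% in CKO and 20.7% in control cells at E14.5. The observed share was thus 1.58 times this in CKO and 1.24 times in control cells at E13.5, and 2.62 times in CKO and 1.34 times in control cells at E14.5. A cell with Fos tended to have Egr1: 112 CKO cells held both at E13.5 against 67.1 if independent, 103 control cells against 66.8, 30 CKO cells at E14.5 against 18.6, and 74 control cells against 51.9. A UMI of any of the 10 was found in 61.5% of CKO and 67.9% of control cells at E13.5, and in 48.3% of CKO and 72.2% of control cells at E14.5.

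Both gates of the lineage showed the lower joint share. With cells thinned to 1000 UMIs instead, the interval of the epicardial ratio did not exclude equal shares at either stage. At the depth used above, the epicardial share was 14.7% in CKO and 26.4% in control cells at E13.5. At E14.5 it was 9.63% in CKO and 26.1% in control cells. The fibroblast share was 19.7% in CKO and 29.3% in control cells at E13.5, and 10.3% in CKO and 28.3% in control cells at E14.5. Valve mesenchyme had 24.8% in CKO and 26.7% in control cells at E13.5 and 24.6% in CKO and 32.7% in control cells at E14.5, with overlapping intervals at both stages. Other mesenchyme had 25.6% in CKO and 30.5% in control cells at E13.5, with overlapping intervals, and 20.2% in CKO and 36.7% in control cells at E14.5. Mural cells had 25% in CKO and 56.0% in control cells at E13.5, and 19.2% in CKO and 27.8% in control cells at E14.5.

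In macrophages the joint share was 58.8% in CKO and 55.9% in control cells at E13.5 and 54.2% in CKO and 64.5% in control cells at E14.5, below the share expected if independent in all 4 libraries. Cardiomyocytes had 2.48% in CKO and 3.15% in control cells at E13.5 and 0.975% in CKO and 2.52% in control cells at E14.5, and endocardial and coronary endothelial cells 1.71% to 4.12%. At this equal depth the shares in the lineage lay above those of cardiomyocytes in all 4 libraries. No class lacked the 10 genes, so a background share from free RNA in the droplets could not be read, and its part in the shares was not tested. The ratio of CKO over control shares in cardiomyocytes at E14.5 was 0.387, close to the 0.36 of the lineage at that stage, while at E13.5 it was 0.786 in cardiomyocytes and 0.638 in the lineage.

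**Figure D4:**
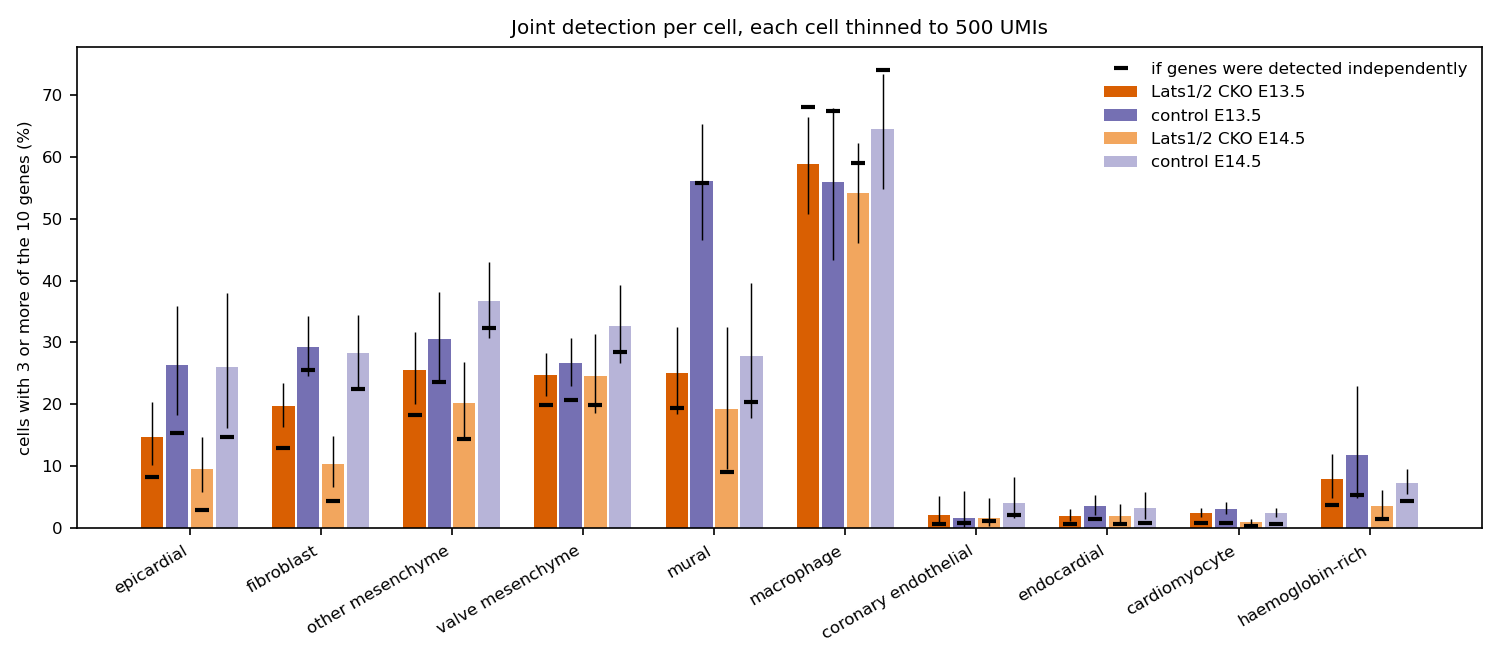
Share of cells (%) with a UMI of at least 3 of the 10 genes after thinning each cell to 500 UMIs, by gated class, with 95% Clopper-Pearson intervals, Lats1/2 CKO in orange and control in violet. Black dashes give the share if the genes were detected independently. Epicardial and fibroblast bars are lower in both CKO libraries than in the control library of the same stage, with 9.63% and 10.3% in CKO cells at E14.5.

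Cells with and without a UMI of Egfp come from the same suspension and can be set side by side within a library. In the lineage of CKO hearts, the summed level was 4234 CPM in 160 Egfp-positive and 3792 CPM in 551 Egfp-negative cells at E13.5 (log2 ratio 0.16, 0.09 to 0.22), and 3199 CPM in 104 Egfp-positive and 2117 CPM in 316 Egfp-negative cells at E14.5 (0.60, 0.47 to 0.72). In control hearts it was 7445 CPM in 36 Egfp-positive and 5151 CPM in 428 Egfp-negative cells at E13.5 (0.53, 0.45 to 0.61), and 5796 CPM in 11 Egfp-positive and 5096 CPM in 302 Egfp-negative cells at E14.5 (0.19, 0.02 to 0.34). In the lineage as a whole, Egfp-positive cells thus had the higher summed level in all 4 libraries, and both their CKO values lay below both Egfp-negative control values. The latter did not hold within fibroblasts, where Egfp-positive CKO cells were at 6151 CPM at E13.5 and 1632 at E14.5. Egfp-negative control fibroblasts were at 5340 CPM at E13.5 and 5498 at E14.5. Within epicardial cells it held, with 3115 and 3486 CPM against 4641 and 3994 CPM in the same order.

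The Egfp-positive cells were deeper, with a median of 3175.5 UMIs against 2211 in Egfp-negative cells of the CKO library at E13.5, and 1815.5 against 1092 at E14.5. In the control libraries the gap was larger, with 3777.5 against 1624.5 UMIs at E13.5 and 4637 against 1097.5 at E14.5. A deep cell is likelier to show an Egfp UMI. At E13.5 the CKO library had 91 epicardial cells among its 160 Egfp-positive lineage cells and 113 among its 551 Egfp-negative ones. Within epicardial cells alone the log2 ratio was -0.06 in CKO and 0.52 in control cells at E13.5, and 1.07 in CKO and 0.62 in control cells at E14.5, and within fibroblasts 0.65 in CKO and 0.62 in control cells at E13.5, and -0.53 in CKO and -0.01 in control cells at E14.5. The part of depth in these ratios was not tested. Nfkbia had the lower level in Egfp-positive cells of both E13.5 libraries, with 72.4 against 120 CPM in the CKO library and 111 against 178 CPM in the control library, while Atf3 was higher there, with 100.2 against 52.9 CPM in the CKO library and 189 against 105 CPM in the control library. At E14.5 the order of Nfkbia was the other way, with 91.0 against 66.1 CPM in the CKO library and 205 against 162 CPM in the control library, and both intervals included 0. Atf3 at E14.5 was at 98.6 against 30.9 CPM in the CKO library and at 47.2 against 61.6 CPM in the control library, the last from 3 UMIs in the Egfp-positive cells. Within CKO epicardial cells at E13.5 Atf3 was at 122 CPM in Egfp-positive and 145 in Egfp-negative cells (-0.25, -0.85 to 0.36), while the gates differ in their Atf3 level and in their share of Egfp-positive cells.

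**Figure D5:**
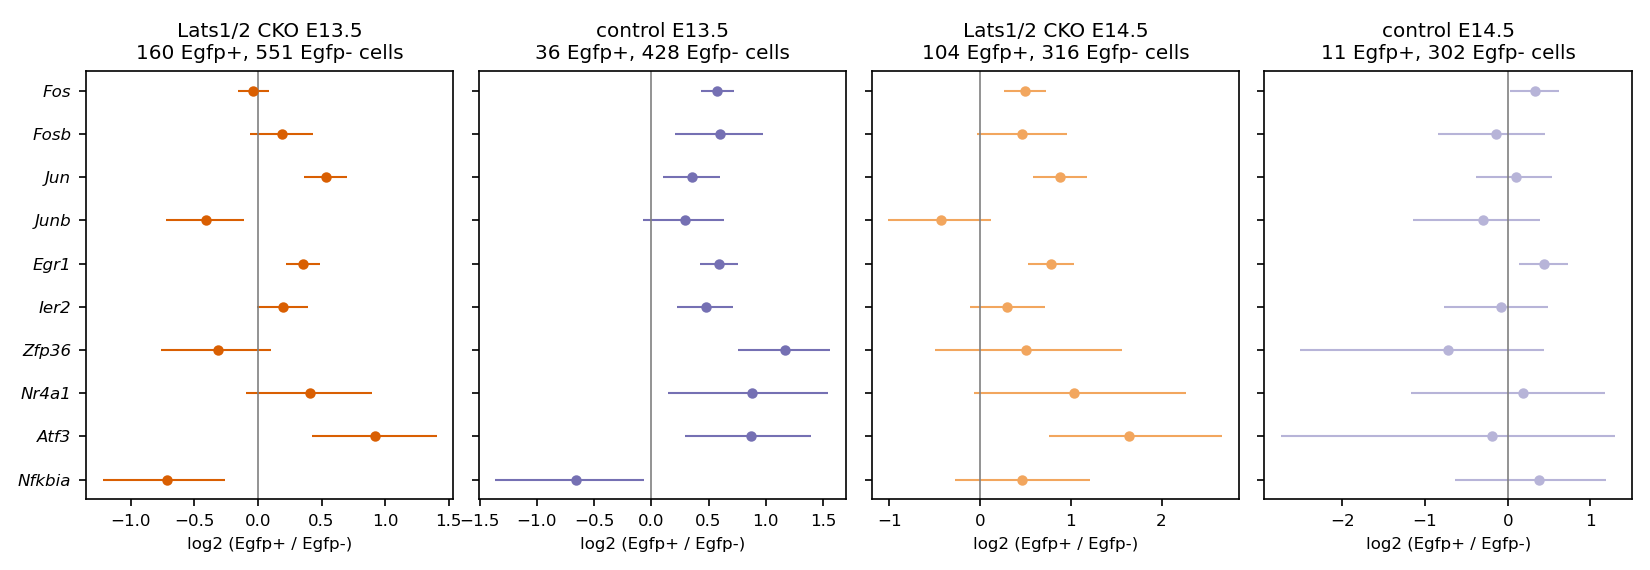
Log2 ratio of the level in Egfp-positive over Egfp-negative cells of the epicardial lineage for each gene, 1 panel per library, with 95% counting intervals. Atf3, Jun and Egr1 lie above 0 with their intervals in both CKO libraries, and the control library at E14.5 has only 11 Egfp-positive cells.

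Related early and stress genes were read from 4 companion lists. Of the other AP-1 and early transcription factors, 14 of 17 were tested in the lineage, and 0 passed in edgeR. Jund, Egr2 and Klf2 were lower at an unadjusted p under 0.05, and the list's median log2 ratio was -0.31 at the earlier and -0.13 at the later stage. Jund, an AP-1 protein made in most cells without a stimulus, was at 206 CPM in CKO and 346 in control cells at E13.5 and at 271 in CKO and 422 in control cells at E14.5. Klf6, a zinc finger factor, was at 282 CPM in CKO and 244 in control cells at E13.5 and at 343 in CKO and 247 in control cells at E14.5, and Klf4 at 46.0 in CKO and 30.7 in control cells at E13.5 and at 104 in CKO and 90.9 in control cells at E14.5. In epicardial cells alone, 1 of the 11 tested genes of this list passed in edgeR, lower in CKO cells, where 1.42% of genes were called.

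Of the feedback regulators and other early genes, 25 of 26 were tested and 0 passed in edgeR, with 2 higher and 4 lower at an unadjusted p under 0.05 and median log2 ratios of -0.25 at the earlier and 0.11 at the later stage. Btg2, Dusp1, Ppp1r15a and Socs3 were the 4 lower genes. Ppp1r15a, which ends the integrated stress response, was at 75.1 CPM in CKO and 151 in control cells at E13.5 and at 56.5 in CKO and 131 in control cells at E14.5. Cyr61 and Gadd45g were the 2 higher genes: Cyr61, a matricellular early gene and a known YAP target, was at 925 CPM in CKO and 767.5 in control cells at E13.5 and at 816 in CKO and 491 in control cells at E14.5. Against cardiomyocytes, the genotype effect in the lineage rose above theirs for Cyr61 by 0.76 (SE 0.14, edgeR adjusted p = 5.67e-05) and for Gadd45g, a growth arrest and DNA damage gene, by 1.18 (SE 0.21, adjusted p = 1.12e-05). Zfp36l1, a relative of Zfp36, was at 247 CPM in CKO and 432 in control cells at E13.5 and at 433 in CKO and 376 in control cells at E14.5. Early genes of this list thus lay on both sides of 0 in the same cells. In epicardial cells alone, 1 of its 19 tested genes passed in edgeR, higher in CKO cells, where 1.42% of genes were called.

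Of the NF-kappa-B targets and chemokines, 6 of 12 were tested and 0 passed in the lineage fit, with Ccl2 and Cxcl1 lower at an unadjusted p under 0.05 and median log2 ratios of -0.49 at the earlier and -0.67 at the later stage. Ccl2, a monocyte attractant, was at 29.1 CPM in CKO and 99.8 in control cells at E13.5 and at 35.3 in CKO and 76.3 in control cells at E14.5. Its genotype effect in the lineage was below that in macrophages by -1.601 (SE 0.29, edgeR adjusted p = 0.000154), and that of Cxcl12, a chemokine of stromal cells, was below that in other mesenchyme by -0.85 (SE 0.23, adjusted p = 0.0495).

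Of the heat shock and stress chaperones, which dissociation can also induce, 13 of 14 were tested and 0 passed in the lineage fit, with 2 higher (Hspa8 among them) and 0 lower at an unadjusted p under 0.05 and median log2 ratios of 0.20 at the earlier and 0.07 at the later stage. Hsp90ab1 was at 3869 CPM in CKO and 3375 in control cells at E13.5 and at 3137 in CKO and 3288 in control cells at E14.5. Hspa5, the chaperone of the endoplasmic reticulum, was at 2065 CPM in CKO and 1665 in control cells at E13.5 and at 1831 in CKO and 1547 in control cells at E14.5, and its genotype effect in the lineage exceeded that in cardiomyocytes by 0.72 (SE 0.13, edgeR adjusted p = 1.71e-05). The heat shock list did not share the direction of the 10 genes at either stage by its median. In epicardial cells alone, 1 of its 13 tested genes passed in edgeR, higher in CKO cells, where 1.42% of genes were called. Among the NF-kappa-B targets and chemokines, 0 of the 6 tested passed there. DESeq2 called 0 of these companion genes in the lineage and in the comparisons between classes.

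Over the 40 points, the genes outside the 10 whose log2 (CPM + 10) was most like that of the summed 10 were Btg2 (Pearson r 0.90), Nfkbiz (0.86), Dusp1 (0.86), Lrp1 (0.82) and a joined row of AC102815.1, Kctd12 and Mir5130 (0.81), among 4157 genes averaging at least 50 CPM. Btg2, Nfkbiz and Dusp1 are early genes of the companion lists, while Lrp1 encodes an endocytic receptor. The points share libraries and are dominated by the difference between macrophages and mesenchyme on the one side and endothelial cells and cardiomyocytes on the other.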

How the data were processed

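UMI counts per gene and cell were measured by Drop-seq in 4 libraries, 1 for each genotype and stage. The deposited values are raw UMI counts in a merged table, made by the authors; the submitters' processing notes name STAR, Picard and mm10, with no order or settings. The libraries held 17073173 and 9114173 UMIs in the kept cells of Lats1/2 CKO hearts at E13.5 and E14.5, and 11163902 and 8569238 in those of control hearts.

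Cells with at least 500 UMIs, 300 genes and at most 20% mitochondrial UMIs were kept (scanpy 1.11.5, numpy 2.4.6, scipy 1.17.1). A cell joined a class where its mean marker score was at least 0.4 and led the next class by 0.2, with 2 distinct markers; these cut-offs were set after marker values were seen. Fibroblasts also needed a UMI of Tcf21, Ogn or Dpep1. The doublet caller marked 0 to 7 cells per library and had not worked, so no doublets were removed. UMIs were summed per class and library.

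Sums were tested with edgeR 4.0.16 (R 4.3.3; quasi-likelihood, stage and genotype), and the difference between classes with library, class, class by stage and class by genotype terms, each with Benjamini-Hochberg adjustment over all genes. DESeq2 1.42.0, no filter on low counts, no stage term, a stricter gate, a 10% mitochondrial limit, thinning, clusters in place of the gate and leaving out the 5% highest doublet scores were alternatives. Ratios carry exact conditional intervals, shares Clopper-Pearson intervals and joint-share ratios Katz intervals, all for counting error only. The tests were tried on simulated counts. All 10 genes are named. Companion genes were named where they passed a test between the lineage and another class or were among the 3 of highest mean level. Those that passed in epicardial cells alone are given by count, and those named for an unadjusted p were chosen after their values were seen. The values of 1 companion gene are not reported here. The members and lists were chosen with earlier results of these data known.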

Additional observations from a re-analysis of the deposited data

Results flagged for a closer look

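The genotype effect differed between the epicardial lineage and another class, by edgeR's test of the difference itself, for 4 of the 10 genes. Zfp36 was lower in the lineage by a log2 difference of -1.16 against cardiomyocytes, -1.28 against valve mesenchyme and -1.415 against macrophages. Nfkbia differed by -1.02 from cardiomyocytes, Egr1 by -0.74 from valve mesenchyme and Fosb by -1.08 from macrophages. DESeq2 called none of these 6, with adjusted p of 0.9999 for each.

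Some genes had counting intervals on opposite sides of 0 at the 2 stages within a class, which set them apart; the difference between stages was not tested. Jun (log2 ratio of CKO over control) was at 0.37 at the earlier and -0.31 at the later stage in cardiomyocytes, at 0.23 and -0.45 in endocardial cells, at 0.39 and -0.28 in macrophages and at 0.42 and -0.43 in valve mesenchyme. Atf3 was at 0.52 at the earlier and -0.71 at the later stage in cardiomyocytes. Fosb was at 0.29 and -0.49 in valve mesenchyme, and Junb at -1.37 and 0.70 in mural cells. With cells thinned to equal depth, and so with fewer UMIs, the Jun interval at E14.5 lay below 0 in 0 of the 8 outside classes. Those of Atf3 and Fosb at E13.5 and of Junb at E14.5 lay above 0 in 0 of the 8.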

How the results depend on the processing

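The lineage's summed ratio stayed below 0 in every alternative run. At E13.5 it was -0.58 with the stricter gate and -0.65 with clusters in place of the gate, and at E14.5 -1.10 with thinned cells and -0.82 with clusters. The log2 ratio of joint shares at E13.5 was -0.32 at 1000 UMIs per cell and -0.31 for at least 2 genes. The coronary sum reversed, to 0.068 at E13.5 and -0.26 at E14.5 without the highest doublet scores and to -0.24 at E14.5 with thinned cells.

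Counts of called genes moved most. Without the filter the genotype fit called 194 genes in the lineage (1 with it), among them 3 of the 10, and 15 in cardiomyocytes, 58 in coronary, 103 in endocardial (Atf3 among them), 146 in endothelial and 15 in haemoglobin-rich cells, 24 in macrophages, 20 in other mesenchyme and 62 in valve mesenchyme. DESeq2 called 11 in the lineage, 18 in cardiomyocytes, 4 in coronary, 7 in endocardial, 5 in endothelial and 4 in mural cells. Epicardial cells alone gave 107 calls, 1 of them among the 10, and fibroblasts alone 4. For the difference between the lineage and another class, DESeq2 called 0 genes in each class, against 106 for cardiomyocytes, 27 for other mesenchyme, 12 for valve mesenchyme, 10 for macrophages, 2 for haemoglobin-rich and 1 for mural cells in edgeR. Thinned cells gave 9 for cardiomyocytes, 3 for endothelial cells and 0 for macrophages, other mesenchyme, mural and haemoglobin-rich cells. Without the filter 61 were called for endothelial cells, 38 for valve mesenchyme and 0 for haemoglobin-rich cells. Thinning removes UMIs and so leaves fewer genes to test; otherwise the cause was not tested.

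No paired analysis was possible because each genotype and stage had 1 library and the labels give no replicate numbers. Leaving out a library was not run, since it leaves no residual degrees of freedom. With 1 residual degree of freedom, changes near 2-fold were rarely recovered in simulated counts (4% in the lineage fit, and 0% in the comparison with cardiomyocytes on 15117 genes), so a gene that missed the threshold is not shown to be alike in both genotypes.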
